A study of Rattus norvegicus with 4 samples.

Results

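Alpha- and gamma-tubulin genes were followed in S16 cells, an immortalized line of rat Schwann cells, the cells that wrap and myelinate axons of the peripheral nerve. The 6 genes were taken by symbol: the alpha-tubulins Tuba1a, Tuba1b, Tuba1c, Tuba4a and Tuba8, and the gamma-tubulin Tubg1. They are 6 of 30708 symbols listed, and 5 of the 6 averaged 1 RPKM or more (read count divided by gene length in kilobases and by library size in units of 1000000 reads), a level reached by 11025 symbols in all. The cells were unmodified S16 cells at passage 9, the parental line of enhancer-deletion clones that are not analysed here, and unmodified S16 cells at passage 39. No library came from treated or edited cells. Each passage was 1 population with 2 libraries called technical replicates, so the 4 libraries hold 2 populations, and no p-values were computed. Values below are in the order passage 9 replicate 1, passage 9 replicate 2, passage 39 replicate 1, passage 39 replicate 2.

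Microtubules are polymers of a heterodimer of alpha- and beta-tubulin, and each subunit is encoded by several genes, the isotypes, whose proteins differ mainly in their tails. Gamma-tubulin is not part of the wall of the polymer: it sits in a ring complex from which new microtubules grow. In Schwann cells microtubules carry membrane, mRNA and protein toward the growing myelin sheath.

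Libraries of the same number were closer to each other than libraries of the same passage. Over the 11025 genes, the SD of the log2 difference was 0.339 between the 2 libraries of passage 9 and 0.334 between those of passage 39, against 0.0796 between the first libraries and 0.0823 between the second libraries of the 2 passages. The methods state that technical replicates were pooled and spread over 2 sequencing lanes, and neither they nor the labels say what sets replicate 1 apart from replicate 2. Read totals recovered from the values ranged from 34246093 to 41382234 per library. These exceed the number of reads per cell line that the methods state, and the gap was not resolved. All 10 Schwann cell markers were at 1 RPKM or more. Sox10, the transcription factor of the Schwann lineage, was at 171 to 183 RPKM, and Pmp22, a protein of compact myelin, at 1216 to 1293 RPKM. Of 10 neuronal markers only Nefl, a neurofilament subunit, passed 1 RPKM, at 72.7 to 115.8, and Syt1, Elavl4, Stmn2 and Dcx were listed at 0. Of 7 fibroblast markers 3 passed, with Col1a1 at 3344 to 3877 RPKM and Thy1 listed at 0. Of 6 muscle markers 2 passed, with Myog listed at 0 and a summed level of 5.35 to 6.54 RPKM. None of 5 testis germ cell markers passed, their summed level was 0.0951 to 0.188 RPKM, and Dazl, Prm1 and Tnp1 were listed at 0.

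The starts of the 5 detected genes are shown because the results turn on isotypes of one family that differed in level by over an order of magnitude. Each sequence is the 100 bases just before the RefSeq transcription start in the GRCr8 assembly, written 5′ to 3′ on the gene's strand. Capitals mark 3 short motifs, searched on both strands with no mismatch: TATAA of the TATA box, the CCAAT box, and the letters GGGCGG of the GC box. No match overlapped another in these windows.

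Tuba1a, chr7:131995820-131995919, minus strand: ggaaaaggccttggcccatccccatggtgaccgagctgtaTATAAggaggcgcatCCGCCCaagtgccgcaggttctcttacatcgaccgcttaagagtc

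Tuba1b, chr7:131972588-131972687, minus strand: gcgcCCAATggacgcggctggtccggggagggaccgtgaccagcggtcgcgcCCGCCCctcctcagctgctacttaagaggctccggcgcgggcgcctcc

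Tuba1c, chr7:132070884-132070983, plus strand: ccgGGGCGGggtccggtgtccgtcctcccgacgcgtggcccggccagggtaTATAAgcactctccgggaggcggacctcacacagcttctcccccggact

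Tuba4a, chr9:84162585-84162684, minus strand: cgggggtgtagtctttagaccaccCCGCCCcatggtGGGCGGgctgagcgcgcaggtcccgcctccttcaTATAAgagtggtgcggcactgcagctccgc

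Tubg1, chr10:86553043-86553142, plus strand: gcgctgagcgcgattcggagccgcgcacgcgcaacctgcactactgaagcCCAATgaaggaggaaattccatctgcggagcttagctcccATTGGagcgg

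Tuba1a, Tuba1c and Tuba4a held TATAA upstream of the start, with its first base at −60, −49 and −30, whereas Tuba1b and Tubg1 held none in this window. Tubg1 held CCAAT at −50 and, on the other strand, at −10, and Tuba1b held it at −96. Over the 300-base windows Tuba1a (−158) and Tuba1c (−242 and −123) held CCAAT too, and Tubg1 was the one of the 5 with no GGGCGG. Among 33469 RefSeq promoter windows of 300 bases (250 before the start to 50 after it), TATAA was in 26.2%, CCAAT in 37.5% and GGGCGG in 33.1%. These matches are letters in a window and say nothing of binding. Tuba1a, Tuba1b and Tuba1c are clustered on chromosome 7. The start of Tuba1b lies 23232 bp from that of Tuba1a with no other gene wholly between them, and the start of Tuba1c lies 75165 bp from that of Tuba1a. In the RefSeq gene table of GRCr8 the outer bounds of the Tuba1c model, which reach far upstream of the start shown here, cover both neighbours on the other strand. Strand was not used in counting, so reads of overlapping models could not be told apart by strand, and the older annotation behind the values was not used here.

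Tuba1a, the alpha-tubulin best known from developing brain, was the highest of the 6. Its level was 319.1, 323.6, 314.4 and 320.5 RPKM in the 4 libraries. The population means averaged 319 ± 2.75 RPKM (SD, n = 2 populations), which placed it 102nd among all genes. This SD, here and below, leaves out the difference between replicate numbers. Tuba1b, a broadly used isotype, was at 102.6, 113.3, 106.2 and 113.5 RPKM, with a mean of 109 ± 1.34 (SD, n = 2). Tuba4a, the isotype whose protein lacks the genetically encoded last tyrosine of Tuba1a and Tuba1b, was at 43.5, 58.0, 43.6 and 58.9 RPKM, with a mean of 51.0 ± 0.354 (SD, n = 2). In these 3 genes the second library of each passage was above both first libraries, by little in Tuba1a and by the widest margin in Tuba4a.

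Tubg1, the main gamma-tubulin of dividing cells, was at 23.7, 34.7, 25.7 and 32.8 RPKM, with a mean of 29.2 ± 0.0330 (SD, n = 2). Its SD over the means of the 2 replicate numbers was 6.40. Tuba1c, another broadly used alpha isotype, was at 5.58, 6.21, 5.72 and 5.60 RPKM, with a mean of 5.78 ± 0.165 (SD, n = 2). Its libraries of the same number lay on both sides of each other. Tuba8, an isotype known from muscle and testis, was listed at 0 in 3 libraries and at 0.0201 RPKM in passage 39 replicate 1, the value of 1 read. At these totals 3 reads of Tuba8 correspond to between 0.050 and 0.060 RPKM, so its level was not distinguishable from 0 at this depth. The order Tuba1a, Tuba1b, Tuba4a, Tubg1, Tuba1c held in each of the 4 libraries, and the ranges of neighbours in this order did not overlap.

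**Figure D1:**
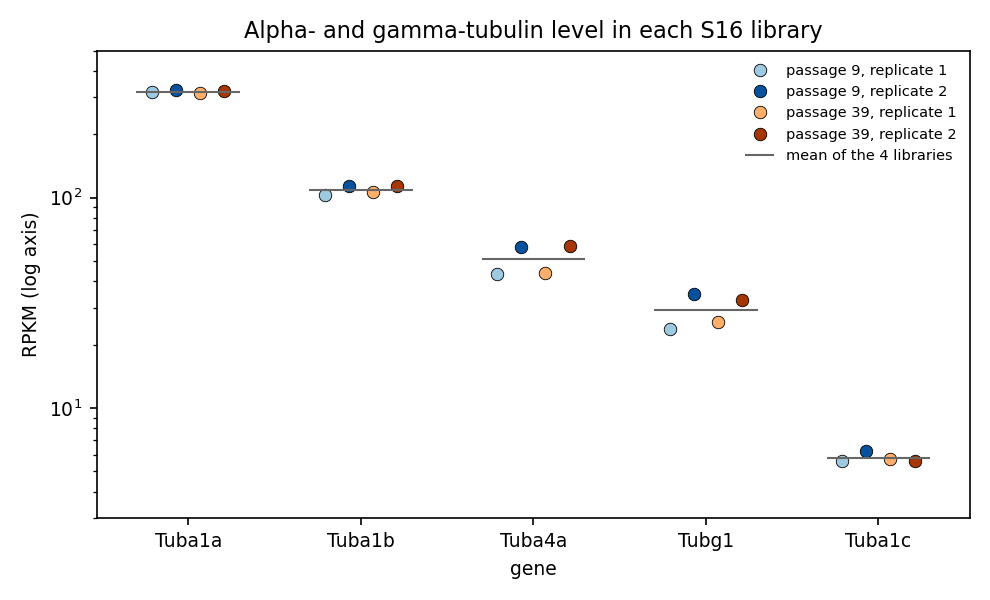
RPKM on a log axis of 5 genes in each of the 4 libraries, with 1 point per library and a line at the mean of the 4. Tuba8, at 0 in 3 of 4 libraries, cannot be placed on a log axis and is not drawn. Tuba1a sits between 314 and 324 RPKM, and the second libraries of Tuba4a and Tubg1 sit above their first libraries.

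The other tubulins of these families were low or undetected. Tuba3a and Tubal3 were listed at 0 in all 4 libraries, and Tuba3b at 0, 0.0191, 0.0196 and 0.0163 RPKM, the value of 1 read wherever it was above 0. Tubg2, the second gamma-tubulin, was at 1.89, 2.89, 1.91 and 2.66 RPKM. Tubg1 was therefore between 12.0 and 13.4 times Tubg2 in each library. The 2 genes are neighbours on chromosome 10 with no gene wholly between them in GRCr8. Tubd1 and Tube1, the delta- and epsilon-tubulins of centrioles, were at 4.10 to 5.12 and 13.1 to 16.2 RPKM.

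A listing at 0 has to be read with care. Tbcb, a cofactor in tubulin folding, and Hdac6, a tubulin deacetylase, are broadly used genes and were also listed at 0 in all 4 libraries. Close copies set another limit, because only uniquely placed reads were kept. RefSeq lists 14 pseudogenes of Tuba1b on 8 chromosomes, 5 each of Tuba1a and Tuba1c, 4 of Tubg1 and 1 of Tuba4a in GRCr8, and the files listed none of them. Reads shared with such copies, or between alpha isotypes, would have been lost from the counts, so levels set between isotypes are uncertain.

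Summed over the isotypes, alpha-tubulin stood at 470.7, 501.2, 470.0 and 498.5 RPKM, and the mean was 485 ± 1.21 (SD, n = 2). The summed beta-tubulin level, given here for scale, was 1240, 1311, 1228 and 1284 RPKM. The ratio of alpha to beta was 0.380, 0.382, 0.383 and 0.388, so the family sums kept nearly one ratio in all libraries while single isotypes did not. Gamma-tubulin summed to 25.6, 37.6, 27.6 and 35.4 RPKM, which was 5.43%, 7.50%, 5.87% and 7.11% of the alpha sum. Both second libraries thus had the higher share of gamma-tubulin.

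Within the alpha family Tuba1a made up 67.8%, 64.6%, 66.9% and 64.3% of the RPKM. The share of Tuba4a was 9.24%, 11.6%, 9.29% and 11.8%, and that of Tuba1b between 21.8% and 22.8%. Tuba1c made up 1.12% to 1.24%. The second libraries had a lower share of Tuba1a and a higher share of Tuba4a in both passages. The ratio of Tuba1a to Tuba4a was 7.33, 5.58, 7.20 and 5.44.

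**Figure D2:**
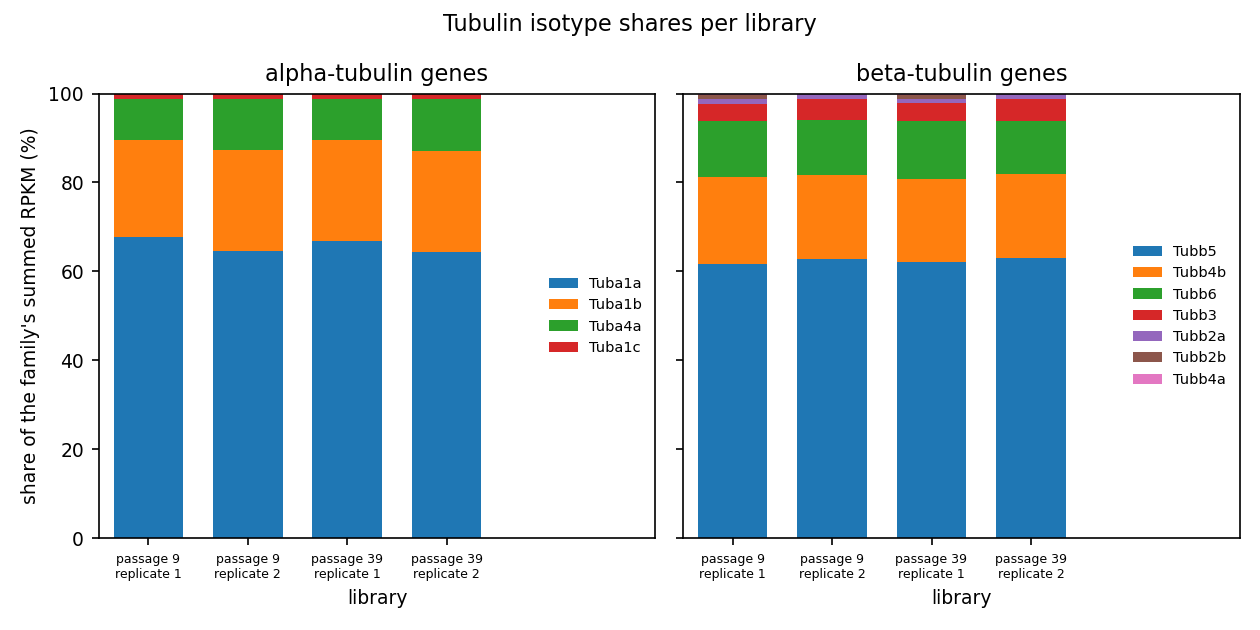
Share of each gene in the summed RPKM of its family (percent), alpha-tubulins on the left and beta-tubulins on the right, with 1 stacked bar per library. Tuba1a holds 64.3% to 67.8% of the alpha sum and Tubb5 61.7% to 63.1% of the beta sum, and Tuba4a is wider in the second libraries.

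The first comparison set the second technical replicates against the first, as the difference in log2(mean RPKM + 1) between the sides. It asks whether the alpha- and gamma-tubulin genes moved with the beta-tubulins Tubb2b and Tubb4a, which were far lower in the second libraries. None of the 5 measured genes differed 2-fold, where 120 of the 11025 genes did (1.09%). In 4 of 5 both second libraries were above both first libraries, and in 0 of 5 below. Over all genes these shares were 57.2% above and 30.5% below, so a gene higher in both second libraries was the usual case. The median difference was 0.12 over the 5 genes and 0.10 over all genes.

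Tubg1 and Tuba4a stood toward the upper end of all genes. The Tubg1 mean was 24.7 RPKM in the first and 33.7 in the second libraries, a difference of 0.44 on the log2 scale that was above that of 91.0% of genes. The second to first ratio was 1.465 at passage 9 (95% interval 1.372 to 1.565) and 1.276 at passage 39 (1.194 to 1.364), and the 2 intervals did not overlap. These intervals are exact Clopper-Pearson intervals on the recovered reads and cover counting error only. Tuba4a averaged 43.6 and 58.4 RPKM, a difference of 0.41 that was above that of 89.7% of genes. Its ratio was 1.333 (1.272 to 1.397) at passage 9 and 1.349 (1.286 to 1.415) at passage 39. Tuba4a thus showed nearly the same ratio in both passages, and the ratios of Tubg1 lay further apart. The gap between the Tubg1 intervals, from 1.364 to 1.372, was narrow. If the recovered totals are too large, the intervals are too narrow and may overlap.

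Tubg2 had ratios of 1.532 (1.219 to 1.929) and 1.392 (1.099 to 1.769). Both gamma-tubulins were therefore higher in the second libraries, and the counting intervals of Tubg1 and Tubg2 overlapped within each passage.

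The abundant alpha isotypes differed less. Tuba1a had ratios of 1.014 (0.994 to 1.034) and 1.019 (0.999 to 1.040), and both intervals held 1. Its log2 difference of 0.02 was above that of 38.8% of genes. Tuba1b averaged 104 and 113 RPKM, with ratios of 1.105 (1.056 to 1.157) and 1.069 (1.021 to 1.119). Tuba1c had ratios of 1.112 (0.932 to 1.328) and 0.979 (0.816 to 1.175), and both intervals held 1 at its 224 to 264 recovered reads per library.

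**Figure D3:**
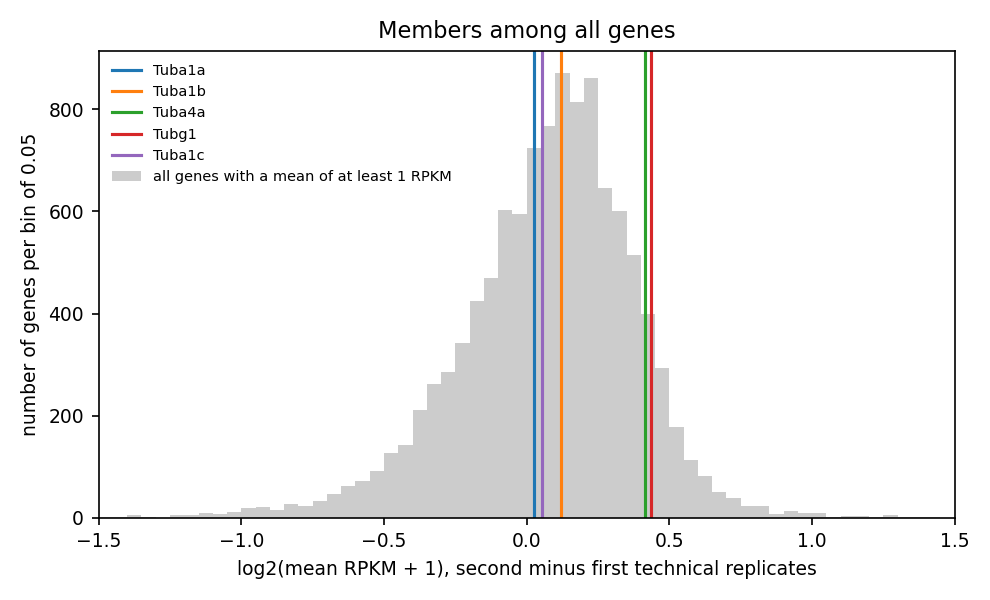
Number of genes (vertical axis, bins of 0.05) by their difference in log2(mean RPKM + 1), second minus first technical replicates, over 11025 genes of which 40 lie outside the axis. Lines mark the 5 genes: Tuba1a, Tuba1c and Tuba1b lie near the middle, and Tuba4a at 0.41 and Tubg1 at 0.44 lie toward the upper end.

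The direction of the small differences depended on how the libraries were scaled. The deposited values summed to 315847 to 351061 RPKM per library, with the larger sums in the second libraries. Rescaling each library to 1 common sum moved the median of all genes from 0.10 to −0.026, and scaling by the median ratio of genes moved it to 0.027. The shares of genes above and below then became 37.7% and 46.3% with the common sum, and 45.8% and 39.4% with the median ratio. Among the 5 genes, 2 were above and 1 below with the common sum, and 3 above and 1 below with the median ratio. Tuba1a turned to −0.12 and −0.066 and Tuba1b to −0.027 and 0.03. Tuba1c, whose libraries overlapped under each scaling, turned from 0.054 to −0.080 and −0.023. Tuba4a (0.27 and 0.33) and Tubg1 (0.30 and 0.35) stayed above. Relative to the median of all genes, Tuba1a was below and Tubg1 and Tuba4a were above under all 3 scalings. Each scaling multiplies a whole library by 1 factor, so places relative to that median were nearly fixed in advance.

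Gene length moved with this comparison. Across the 11025 genes, which are not independent replicates, the Spearman correlation of recovered length with the log2 difference was −0.42, and the medians of 20 length bins ran from 0.28 to −0.22. Taken against genes of similar length, Tubg1 (1658 bp) and Tuba4a (1866 bp) were each 0.23 above, and Tuba1a (1617 bp), Tuba1b (894 bp) and Tuba1c (1143 bp) were 0.18, 0.15 and 0.17 below. Genes of like length thus lay on both sides. The recovered length can be a fraction of the true one, which applies to Tuba1b, whose 894 bp is short for an alpha-tubulin mRNA. It may also apply to Tuba1c at 1143 bp. Over all genes the recovered length ran down to 5 bp, so the length bins can mix true lengths and fractions. Markers moved too. The Schwann cell list had 3 genes above and 7 below with a median of −0.41, and its summed level was 4696 to 4699 RPKM in the first and 3797 to 3847 in the second libraries. The neuronal sum, nearly all of it Nefl, was 112.4 and 115.9 RPKM in the first and 74.7 and 72.8 in the second libraries. The fibroblast sum, nearly all of it Col1a1, went the other way, from 3432 and 3446 to 3934 and 3826 RPKM, with 2 of 3 measured genes above and 1 below. The muscle sum was 5.35 and 5.36 RPKM in the first and 6.43 and 6.54 in the second libraries, with 1 of 2 measured genes above and 1 below. The part of length and of these markers in the tubulin differences was not tested. In bulk RNA, fewer cells of a type and less RNA per cell cannot be told apart.

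Among the 7 measured beta-tubulins 2 were more than 2-fold lower in the second libraries. Tubb2b, an isotype of developing nerve and the gene studied in the enhancer-deletion clones, was at 12.2, 1.86, 12.3 and 1.63 RPKM, and its first libraries averaged 7.03 times the second. Tubb4a, a tubulin of myelinating glia and neurons, was at 4.49, 0.835, 3.99 and 0.760 RPKM, with a first to second ratio of 5.31. Their second to first ratios were 0.153 (0.124 to 0.186) and 0.132 (0.107 to 0.161) for Tubb2b, and 0.186 (0.139 to 0.244) and 0.191 (0.143 to 0.251) for Tubb4a. Over the 5 alpha- and gamma-tubulin genes the lowest bound of any such interval was 0.816, that of Tuba1c at passage 39. The intervals of Tubb2b and Tubb4a thus lay below those of all 5 in both passages.

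The other measured beta-tubulins did not differ 2-fold. Tubb3, known as a neuronal isotype, was at 49.8, 62.1, 49.6 and 63.5 RPKM, with ratios of 1.247 (1.191 to 1.305) and 1.280 (1.222 to 1.340), and Tubb2a at 11.4, 13.7, 11.2 and 13.2 RPKM. Tubb5, the most abundant tubulin, was at 765.5, 822.1, 762.2 and 809.9 RPKM, Tubb4b at 241.1, 248.8, 229.0 and 241.0, and Tubb6 at 155.5, 161.3, 159.4 and 154.4. The ratios of Tubb6 went opposite ways, 1.037 (1.009 to 1.066) at passage 9 and 0.969 (0.942 to 0.996) at passage 39. Tubb1 was listed at 0. The abundant isotypes of both families therefore differed little between technical replicates, and the 2 of these families with the lower second libraries were minor ones. Tubb2b made up 0.982% and 1.01% of the beta sum in the first and 0.142% and 0.127% in the second libraries. Outside these families, Tubd1 (−0.14) and Tube1 (−0.17) were also lower in both second libraries. The counting interval held 1 for Tubd1 at passage 9 and for Tube1 at passage 39.

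**Figure D4:**
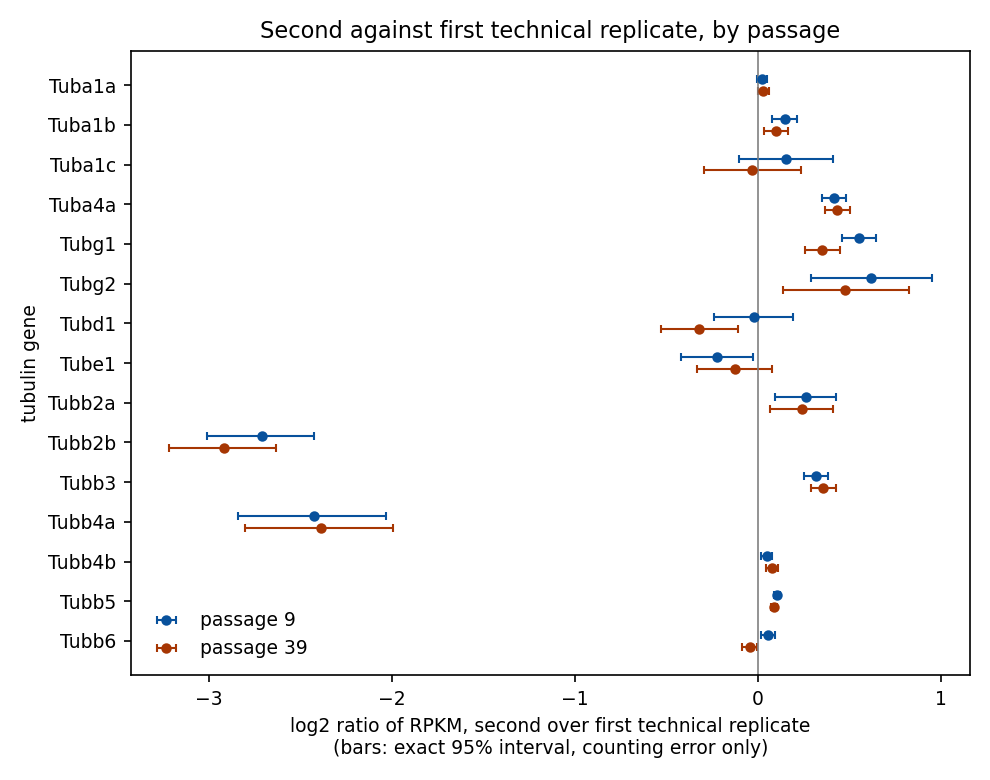
Log2 ratio of RPKM, second over first technical replicate, for the 15 tubulin genes averaging 1 RPKM or more. Points are single ratios at passage 9 (blue) and passage 39 (red), and bars are exact 95% intervals for counting error only. Tubb2b and Tubb4a lie far below 0, Tuba4a, Tubg1 and Tubb3 above 0, and Tuba1a at 0.

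The second comparison set passage 39 against passage 9, the 2 populations the labels name. No alpha- or gamma-tubulin gene differed 2-fold (0 of 5, with 1 gene or 0.00907% over all genes), and none had both libraries of one passage above both of the other. Over all genes 3.1% were above and 3.11% below in both passage 39 libraries, so 0 of 5 was the usual case. Libraries differed more by replicate number than by passage, which left few genes able to separate in this way. The log2 differences of the 5 genes ran from −0.050 (Tuba1c) to 0.02 (Tuba1b), with 0.014 for Tuba4a and 0.0022 for Tubg1.

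Taken within a replicate number, Tuba1a and Tuba4a were close between the passages. The passage 39 to passage 9 ratio of Tuba1a was 0.985 in the first and 0.990 in the second libraries, and that of Tuba4a 1.003 (0.954 to 1.055) and 1.015 (0.972 to 1.060). Tuba1b had ratios of 1.035 (0.988 to 1.085) and 1.001 (0.957 to 1.048). Tuba1c was at 1.025 (0.854 to 1.230) in the first and 0.902 (0.756 to 1.077) in the second libraries, and Tubg1 at 1.085 (1.010 to 1.165) and 0.945 (0.889 to 1.004), so both lay on either side of 1. In the first libraries the interval of Tubg1 was the one of the 5 that did not hold 1, and all 5 held 1 in the second libraries. With 1 population per passage, a change with passage and a difference between 2 flasks cannot be told apart.

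Genes that act on tubulin were then read from lists, and their counts stand beside 57.2% of all genes above and 30.5% below. Since length moved with this comparison, list medians are also given against genes of similar length, a setting chosen after the data were seen. The CCT chaperonin, which folds newly made tubulin, and prefoldin, which delivers it, had 14 of 15 genes above and 1 below in the second libraries, with a median of 0.38 beside 0.10 over all genes. These genes were short, with recovered lengths of 438 to 2740 bp, and against genes of similar length the median was 0.20, with 13 above and 2 below. The split of libraries stayed at 14 and 1 under both other scalings. Cct5 was at 221.0, 288.5, 222.3 and 289.2 RPKM, a difference of 0.38, and Cct3 at 163.7, 218.4, 164.3 and 224.5, a difference of 0.43. The 2 largest differences of the list were those of the prefoldin subunits Pfdn4 (0.57) and Pfdn6 (0.56). Pfdn1, the one below, was at 54.2, 49.7, 52.3 and 51.6 RPKM and is named here because it was the exception. All 8 CCT subunits, a group split off after the values were seen, were above, with differences of 0.31 to 0.47.

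The tubulin folding cofactors assemble the heterodimer after CCT has released its subunits. Of 6 measured, 4 were above and 1 below, with a median of 0.27, a share near that of all genes. Against genes of similar length the median was 0.02. Tbca, which holds beta-tubulin, was at 120.1, 150.3, 119.4 and 144.8 RPKM, a difference of 0.30, and Tbcc at 15.2, 19.0, 15.7 and 19.9, a difference of 0.32. Arl2, a small GTPase that works with the cofactors, was at 23.2, 23.3, 24.1 and 20.6 RPKM and overlapped between the sides, a difference of −0.10. It lay below in both second libraries under the other scalings.

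Gamma-tubulin acts with ring subunits and anchors. Of 16 measured genes of the ring complex and its anchors, 5 were above and 9 below, with a median of −0.090. Many were long, up to 11999 bp, and against genes of similar length the median was −0.077. With the common sum the counts above and below were 1 and 14, and with the median ratio 3 and 12. Mzt1, a small subunit of the ring, was at 41.1, 33.2, 41.9 and 33.0 RPKM (−0.32), Cdk5rap2, an activator of the ring, at 11.5, 7.88, 11.7 and 8.09 (−0.49), and Tubgcp6, a ring subunit, at 10.7, 7.93, 10.8 and 7.47 (−0.44). Haus4, of the augmin complex that brings the ring to existing microtubules, was at 38.2, 41.2, 37.5 and 40.9 RPKM, a difference of 0.11 that turned to −0.030 with the common sum. The 5 Tubgcp ring subunits, a group split off after the values were seen, ran from −0.44 to 0.038 with a median of −0.025. Of these, 1 was above and 3 were below. Haus1 was listed at 0 and Haus6 was not listed.

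Of 10 measured enzymes that modify alpha-tubulin, 6 were above and 4 below, with a median of 0.059, a share above that was near that of all genes. Against genes of similar length the median was 0.067. The counts were 3 above and 6 below with the common sum, or 4 and 5 with the median ratio. Sirt2, a tubulin deacetylase, was at 32.3 to 36.9 RPKM, a difference of 0.17, and Atat1, the acetyltransferase that marks the lumen side of alpha-tubulin, at 7.08 to 9.10 RPKM, a difference of −0.28. Ttll1, a polyglutamylase, differed by 0.39. Ttll12, of the tyrosine ligase-like family, differed by 0.089 and by −0.054 with the common sum.

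Of 15 measured microtubule-binding genes 7 were above and 8 below, with a median of −0.045, or 0.023 against genes of similar length. Mapre1 and Mapre2, proteins that track growing ends, differed by 0.27 and 0.57. Clasp1, which stabilizes ends, differed by −0.53. Stmn1, which sequesters free heterodimers, was at 61.8 to 67.3 RPKM and differed by 0.082, but by −0.064 with the common sum and −0.0064 with the median ratio. Ttc5, which marks tubulin mRNA for decay when free tubulin is in excess, was at 13.4, 13.2, 13.2 and 12.8 RPKM, a difference of −0.030. Between passages, among genes averaging 1 RPKM or more, none of these lists had a gene higher in both libraries of passage 39, and 1 gene of the ring complex list, Haus5, named as the exception, was lower in both.

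**Figure D5:**
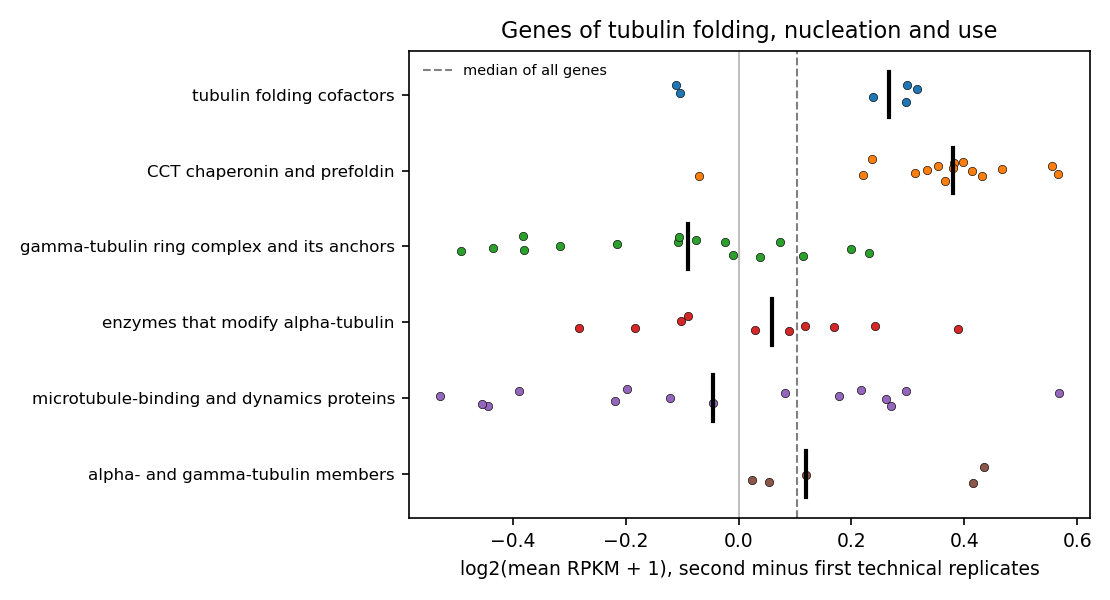
Difference in log2(mean RPKM + 1), second minus first technical replicates, with 1 point per gene that averaged 1 RPKM or more. Black bars are list medians, and the dashed line is the median of all genes at 0.10. CCT and prefoldin lie to the right except 1 gene, at a median of 0.38, and the gamma-tubulin ring complex list has its median at −0.090.

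Tubg1 had the largest difference among the 6 genes, and the genes most like it over the 4 libraries were found by the distance between log2(RPKM + 1) profiles centred on their own mean. Of 11024 other genes the nearest were Cyp27a1, a mitochondrial sterol hydroxylase, at a distance of 0.00995, Rpl12, a ribosomal protein, at 0.0130, and Tmem14c, a mitochondrial membrane protein, at 0.0148. Rpl12 was at 24.2, 35.5, 26.5 and 33.9 RPKM, beside 23.7, 34.7, 25.7 and 32.8 RPKM for Tubg1. Within a distance of 0.1 of Tubg1 lay 434 genes, or 3.94%. Tuba4a came in place 536 at 0.107 and Tuba1a in place 6558 at 0.425, over the same 4 libraries.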

How the data were processed

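S16 cells were profiled by poly(A) RNA-Seq at passage 9 and passage 39. The authors made TruSeq libraries from TRIzol RNA, sequenced single ends of 50 bp, aligned them to rat Rnor_5.0 (rn5) with STAR, kept uniquely mapped reads and counted them without strand with HTSeq. Tool versions are not given in the sources used here. The authors deposited RPKM values per gene symbol. The files point to RefSeq models and the methods to Ensembl, and the step from counts to RPKM is not stated. The count table was not used here.

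Groups and replicate numbers came from the labels. RPKM was averaged per side and compared as log2(mean + 1), which understates changes of low genes, over genes averaging 1 RPKM or more. A gene was called at 2-fold, or where the libraries of the sides did not overlap. No test was run, since each passage is 1 population. Whole reads and totals were recovered from RPKM ratios (18113 of 18114 genes, up to a possible common factor, in which case intervals are too wide). If the recovered totals are too large, as the lower number of reads in the methods would imply, intervals are too narrow. The recovery was tested only on data simulated from the recovered totals and lengths, which cannot show that these are right for the deposited values. Named genes were the 6 members, every other tubulin, the 2 highest and the 2 with the largest difference of each list, and the 3 most alike. Cell type markers, list genes at 0 and exceptions were named after their values were seen. The members and lists were chosen with earlier results of these data known. Promoters came from RefSeq (GRCr8), where all 6 genes matched, and protein sequences were not used here. Alternatives were a pseudocount of 0.1, a minimum of 5 RPKM, other scalings, a 1.5-fold threshold, leaving out each library and, added after seeing the data, a length correction in 20 bins, for the members and the lists, and the other scalings for the lists. The scripts ran in Python 3.11.15 with scipy 1.17.1, numpy 2.4.6 and pandas 2.3.3.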

Additional observations from a re-analysis of the deposited data

Results flagged for a closer look

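In each of 40 genes of the text the highest or lowest of the 4 libraries was compared with the others (Dixon's ratio of gap to range), and 2 stood apart, where chance gives about 1 in 20. Tuba8 had a ratio of 1, from 1 read in passage 39 replicate 1 and 0 in the others. Tuba3b had a ratio of 0.834, from a listing at 0 in passage 9 replicate 1 and 1 read in each of the others. Both ratios restate counts of 0 or 1 read, and the chance rate takes the 4 libraries as alike, which libraries of unequal number were not. Direction was compared between the passages only for the 5 measured alpha- and gamma-tubulin genes. Of these, Tuba1c differed in direction: the second replicate was higher at passage 9 and lower at passage 39, and the log2 differences were 0.16 apart. That difference was not tested, and the counting interval of the ratio held 1 in both passages.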

How the results depend on the processing

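No 2-fold difference appeared among the alpha- and gamma-tubulin genes in either comparison under any alternative run, also at 1.5-fold. No paired test was run, because no result comes from a test. The ratios within each passage and within each replicate number stand beside the results. Tuba1a, at 0.02 for second minus first, reversed to −0.12 with a common sum, −0.066 with the median ratio and −0.18 against genes of similar length. Tuba1b, at 0.12, reversed to −0.027 with a common sum and −0.15 against genes of similar length. Tuba1c, at 0.054, turned to −0.080 with a common sum, −0.023 with the median ratio and −0.17 against genes of similar length. Without passage 9 replicate 2 it was at −0.011. Tubg1 stayed between 0.23 and 0.49 and Tuba4a between 0.23 and 0.43 over 8 alternatives. The median of the enzymes that modify alpha-tubulin, 0.059, reversed to −0.078 with a common sum and −0.020 with the median ratio, and that of the microtubule-binding genes, −0.045, to 0.023 against genes of similar length. With a common sum 1 alpha- or gamma-tubulin gene in place of 0 was apart between passages, higher at passage 39. Over all genes 4.08% were then higher and 3.80% lower at passage 39. The gamma-tubulin sum of 31.6 RPKM became 31.4 with the median ratio and 29.2 with Tubg1 alone. Leaving out 1 library leaves unequal replicate numbers on the sides, and the passage difference then ran from −0.24 to 0.29 for Tubg1 and −0.21 to 0.23 for Tuba4a. Depth limits Tuba1c, Tuba8 and Tuba3b.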
